A study of Homo sapiens with 9 samples.

Results

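Regions called only with shZHX2 were the accessible sites found in hypoxic T47D cells with ZHX2 knocked down and in neither control list. They were chosen by merging 3 lists of called regions, where intervals that shared at least 1 bp became 1 region, and keeping merged regions that held a region of the shZHX2 list and none of the other lists. Of 97804 merged regions, 2005 were of this kind (2.05%), and each was a single region of the shZHX2 list, of which they made up 3.19%. The calls themselves chose the members, so their number, score, fold and width are given as a description with no test.

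The series used ATAC-seq, in which a transposase cuts open chromatin and leaves sequencing adapters there. T47D is a human luminal breast cancer cell line that carries the oestrogen receptor. There were 3 groups of 3 samples: hypoxia with a short hairpin RNA against ZHX2 (shZHX2), hypoxia with a control hairpin (shCtrl; H-shCtrl in the plots), and normoxia with shCtrl (N-shCtrl in the plots). All cells had been infected with lentivirus and selected with hygromycin or puromycin. The sources used here do not give the oxygen level, the time in hypoxia or the number of hairpins against ZHX2, and no shZHX2 group in normoxia was included. Each group gave 1 list of called regions, with 62779 regions for shZHX2, 77451 for shCtrl in hypoxia and 90962 for shCtrl in normoxia. The number of reads behind a list is not known, no spread between samples could be computed, and no difference below has a replicate check. Intervals are Wilson 95% intervals of a share and cover counting error only. The labels could not be checked from the knockdown itself, since accessible regions do not report the RNA of ZHX2. As a check of the cell line, 7 of 8 luminal markers had a region within 1 kb of a gene end in every list, all but ESR1. Of 3 basal markers, KRT5 and KRT14 had none in any list, and TP63 had one in both shCtrl lists and none in the shZHX2 list. Marker sets of other cell types also had end regions: 6 of 14 blood markers with shZHX2, 6 with shCtrl in hypoxia and 7 in normoxia. The stroma and endothelium set had 4 of 12 with shZHX2, 5 with shCtrl in hypoxia and 6 in normoxia, and the liver and neuron set had 6 of 10 in all 3.

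Accessible chromatin marks promoters and enhancers, where nucleosomes give way to transcription factors. Promoters of widely expressed genes are mostly rich in G, C and CpG pairs and stay open in many cell types, whereas enhancers and promoters of tissue-restricted genes are more often CpG-poor and change with cell state. ZHX2 is a zinc finger and homeobox protein that acts in the nucleus and is degraded through VHL, the ubiquitin ligase component that also degrades HIF proteins when oxygen is present.

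Promoter windows touched by members had a low median GC content, except with lists cut to equal length by fold. RefSeq promoter windows of GRCh38.p14, each running from 250 bases before to 50 bases after an annotated start, were available for 27305 genes. Members touched 44 of these windows, and none of the 44 was touched by a region of either shCtrl list. They belonged to 39 genes, of which 28 were protein-coding and 11 made long non-coding RNAs. Windows are shown for the 4 protein-coding genes whose member had the highest fold over background, and for 1 GC-rich start, close to a region of a shCtrl list, that was picked after its values were seen. Capitals mark the bases that the region called only with shZHX2 covers.
TMPRSS11F: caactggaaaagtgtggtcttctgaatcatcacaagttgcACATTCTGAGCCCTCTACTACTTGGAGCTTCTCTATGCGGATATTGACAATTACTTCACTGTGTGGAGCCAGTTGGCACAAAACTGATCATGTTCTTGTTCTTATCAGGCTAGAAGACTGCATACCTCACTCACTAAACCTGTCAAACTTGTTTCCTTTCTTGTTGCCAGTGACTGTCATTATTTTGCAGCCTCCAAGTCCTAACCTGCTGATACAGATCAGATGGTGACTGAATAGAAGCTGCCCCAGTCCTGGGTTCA
OSBPL8: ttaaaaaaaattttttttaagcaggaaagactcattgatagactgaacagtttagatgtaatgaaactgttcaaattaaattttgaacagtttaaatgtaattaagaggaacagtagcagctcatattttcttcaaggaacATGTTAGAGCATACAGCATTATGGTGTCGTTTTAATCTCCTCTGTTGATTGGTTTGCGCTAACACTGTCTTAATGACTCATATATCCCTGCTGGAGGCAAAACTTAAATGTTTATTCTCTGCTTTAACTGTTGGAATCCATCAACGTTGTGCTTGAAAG
PTPRR: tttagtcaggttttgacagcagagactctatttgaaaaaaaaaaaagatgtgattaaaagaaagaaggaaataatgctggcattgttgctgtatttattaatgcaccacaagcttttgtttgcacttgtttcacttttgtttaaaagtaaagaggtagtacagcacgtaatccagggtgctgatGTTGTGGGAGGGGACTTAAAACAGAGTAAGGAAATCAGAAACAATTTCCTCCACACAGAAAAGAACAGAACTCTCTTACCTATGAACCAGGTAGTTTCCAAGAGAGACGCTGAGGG
CDH18: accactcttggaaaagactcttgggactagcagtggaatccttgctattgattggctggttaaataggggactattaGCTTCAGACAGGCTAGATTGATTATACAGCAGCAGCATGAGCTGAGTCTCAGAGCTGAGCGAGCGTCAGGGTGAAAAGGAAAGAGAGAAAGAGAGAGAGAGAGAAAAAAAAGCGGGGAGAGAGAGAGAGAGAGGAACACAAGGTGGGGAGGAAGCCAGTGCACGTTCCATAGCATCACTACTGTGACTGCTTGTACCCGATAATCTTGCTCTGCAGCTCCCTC
CTDSP1: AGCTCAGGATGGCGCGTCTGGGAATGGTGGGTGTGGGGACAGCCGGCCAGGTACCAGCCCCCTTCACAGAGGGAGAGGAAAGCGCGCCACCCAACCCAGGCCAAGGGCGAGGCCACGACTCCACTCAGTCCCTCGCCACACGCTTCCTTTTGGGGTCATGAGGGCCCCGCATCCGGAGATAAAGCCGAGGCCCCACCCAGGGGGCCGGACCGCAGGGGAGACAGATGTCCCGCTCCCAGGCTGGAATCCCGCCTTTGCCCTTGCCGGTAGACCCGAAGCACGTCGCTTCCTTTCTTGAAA

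The window of TMPRSS11F, which encodes a membrane-bound serine protease, lies at chr4:68129820-68130119 on the minus strand. It had 44.3% GC and a ratio of observed to expected CpG pairs of 0.0687. The member over it covered 260 of its 300 bases, with a fold of 4.97. OSBPL8 encodes a protein that carries lipids between the endoplasmic reticulum and the plasma membrane. Its window, at chr12:76423236-76423535 on the minus strand, had 33.0% GC, and its member had a fold of 4.23. PTPRR is a receptor tyrosine phosphatase that acts on MAP kinases. Its window, at chr12:70754559-70754858 on the minus strand, had 37.7% GC and a member with a fold of 4.07. CDH18 is a cadherin of nervous tissue. Its window, at chr5:20575664-20575963 on the minus strand, had 48.7% GC and a member with a fold of 3.93. These 4 members lay 19912 bp or more from the nearest region of either shCtrl list.

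The remaining window was GC-rich. CTDSP1, a phosphatase that helps to silence neuronal genes, has its window at chr2:218397983-218398282 on the plus strand with 65.7% GC. It was covered in full by a member with a fold of 1.92 that lay 598 bp from a region of a shCtrl list. INHBB, a subunit of activin and inhibin, had the window of highest GC content, at 88.7%, and a member with a fold of 2.24 at 587 bp. Of the 28 protein-coding genes with a touched window, 4 had a shCtrl region within 1 kb of the member, among them CTDSP1, INHBB and LRRTM1, a synaptic adhesion protein.

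Over all 44 windows the median GC content was 45.8% (quartiles 40.5% and 50.1%). It was 46.7% in 71 windows touched by regions called with shZHX2 and in normoxia, 52.7% in 42 windows touched by regions called only with shCtrl in hypoxia, and 55.3% in 327 touched only in normoxia. Other regions of the shZHX2 list that were as weak, in its 3 lowest deciles by score, touched 726 windows with a median of 58.7%. Windows touched in all 3 lists had a median of 66.0%, and windows touched by none had 48.0%. The members' median was below that of windows touched by no list, and their quartiles lay across it. A CpG ratio of 0.6 or more, a usual mark of CpG islands, was found in 8 of 44 of the members' windows (18.2%, 9.51 to 32.0), in 37.1% of those touched by the other weak regions, and in 82.4% of those called in all 3 lists. With 1 window per gene the median of the members was 46.0%. With all lists cut to equal length by score it was 49.8%, against 53.7% for regions called only with shCtrl in hypoxia. With lists cut to equal length by fold the order turned round, at 65.3% against 52.3%. The part of the base composition of the libraries in these calls was not tested.

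**Figure D1:**
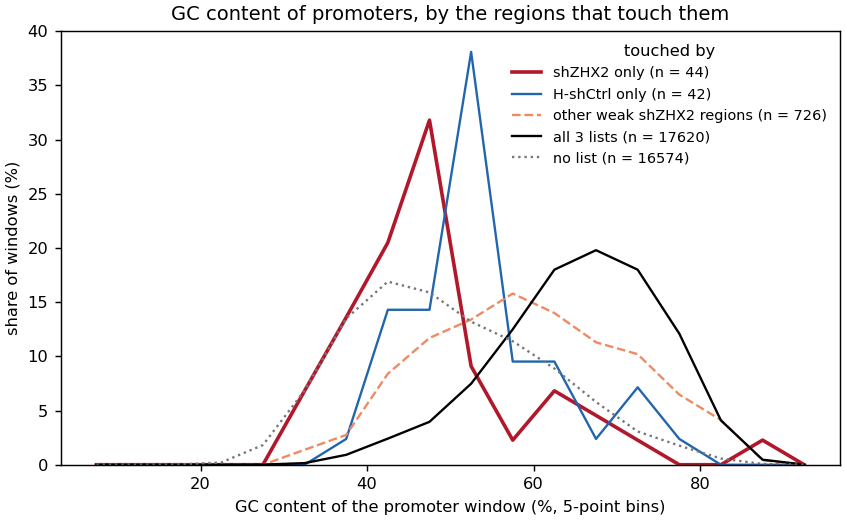
GC content of 300-base promoter windows (x axis, percent, in bins 5 points wide) by the regions that touch them; the y axis is the share of each set of windows in percent. Windows touched by regions called only with shZHX2 centre at 45.8%, close to windows touched by no list (48.0%), and windows called in all 3 lists centre at 66.0%.

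Short motifs were counted in the same windows. All were searched on both strands, and a match is a description of the letters. GGGCGG, the box bound by SP factors, was in 4 of the 44 windows (9.09%, 3.59 to 21.2), against 45.0% of all 35116 windows and 18.8% of those touched by no list. ACGTG or GCGTG, the core of HIF sites, was in 16 (36.4%, 23.8 to 51.1), against 48.4% of all windows and 33.2% of untouched ones. CACGTG, the E-box, which holds ACGTG within it, was in 1 (2.27%), against 7.26% of all windows and 4.92% of untouched ones. TGACTCA or TGAGTCA, bound by AP-1, was in 5 (11.4%, 4.95 to 24.0), against 4.95% of all windows, 6.78% of untouched ones and 11.6% of those touched only in normoxia. GATAAG, bound by GATA factors, was also in 5, against 6.36% of all windows and 9.61% of untouched ones. TGTTTAC or TGTTTGC, bound by forkhead factors, was in 6 (13.6%, 6.40 to 26.7), against 7.17% and 9.20%. For these 3 motifs the interval of the members' share holds the share of untouched windows. CCAAT was in 18 (40.9%), against 34.6% of all windows and 35.1% of untouched ones, and TGACGTCA, bound by CREB factors, was in 1, against 1.85% and 0.627%. AACCGGTT, bound by grainyhead factors, was in 0 of 44, which allows a share of up to 6.82%, against 0.134% of all windows and 0.0603% of untouched ones.

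Few members lay at gene ends. There were 58 members (2.89%, 2.24 to 3.72) within 1 kb of the start or end of a protein-coding gene. At 28 of 20033 protein-coding genes (0.140%) a member lay there and no region of either shCtrl list lay at either end, against 69 genes (0.344%) with an end called only with shCtrl in hypoxia. For 24 of the 28 the strand was known, and the member lay at the annotated start in 20 and at the other end in 4. Among the 28 were CDH18, with a fold of 3.93, SCN2A, a sodium channel, with 3.15, SLC4A10, a bicarbonate transporter, with 3.25, LRRTM1 with 3.29, and FGF14, a regulator of sodium channels, with 3.07. SHH, the hedgehog ligand, had a fold of 3.07 and GSX1, a homeobox factor of the developing brain, had 3.40. These genes are not given in order of fold, and others of the 28 had similar folds. They include CTXN3 with 3.31, SH3TC2 with 3.29, TSPAN8 and SORBS2 with 3.24, TMEM229A with 3.23 and LACTBL1 with 3.21. None of the genes in the lists of neuronal adhesion and synapse genes and of liver and neuron markers had a member at an end. The highest folds in this set were at TMPRSS11F with 4.97, SETD3, a methyltransferase of actin, with 4.47, PHYHIPL with 4.23, and OLR1, a receptor for oxidised LDL, with 4.11. C10orf105 had 3.59, GBP3, an interferon-induced GTPase, with 3.53, KRTAP5-2, a hair keratin-associated protein, with 3.52, and ADGRF1, an adhesion receptor, with 3.33. CSF1R, the macrophage growth factor receptor, had a member with a fold of 3.23 within 1 kb of its start, and was the only blood marker of 14 with a member. KRT15, a keratin of basal cells, had the lowest fold of the 28, at 1.85, with a shCtrl region 1351 bp away. All 28 calls were weak: none was in the stronger 50% of the shZHX2 list.

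Most members were weak. Their median score, which is 10 times the −log10 q, was 149, against 466 for the other 60774 regions of the shZHX2 list. Their median fold over background was 3.36, against 4.88, and their median width was 267 bp, against 482 bp. Of the members, 494 of 2005 (24.6%) were no more than 20 bp wider than the smallest width in the list, 200 bp, against 4.20% of the others, and 5 members were wider than 1 kb. By deciles of score, members made up 13.0% of the weakest decile of the shZHX2 list (815 of 6278, 12.2 to 13.8), 9.37% of the next and 5.67% of the third. These 3 deciles held 87.7% of the members. The upper 5 deciles held 27 members, 0.0860% of their 31389 regions, and the top decile held 0 of 6277, which allows a share of up to 0.0478%.

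**Figure D2:**
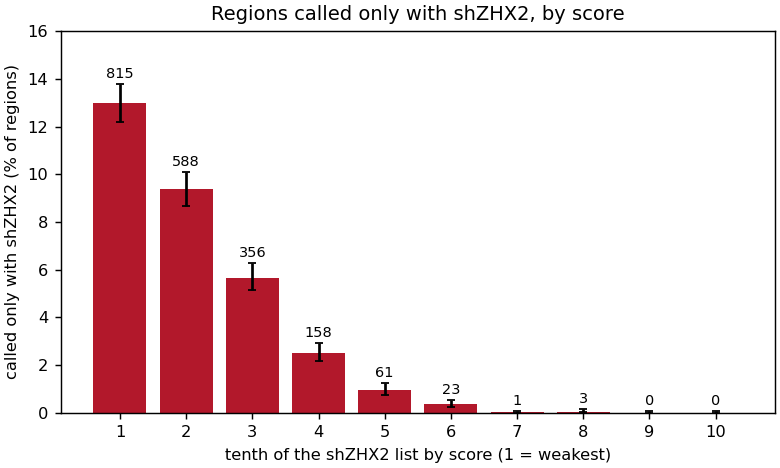
Share of the regions of the shZHX2 list called in neither shCtrl list (y axis, percent) by decile of score within the list (x axis, 1 is the weakest). Bars are shares, whiskers are Wilson 95% intervals and the numbers count the members; the share was 13.0% in the weakest decile and 0 of 6277 in the strongest.

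A few members were strong, and the strongest lay inside CTNND2. CTNND2 encodes delta-catenin, an adhesion protein of neurons. It held 4 members, of 9 shZHX2 regions, against 8 regions with shCtrl in hypoxia and 7 in normoxia. The strongest, at chromosome 5, 11724878 to 11725363, had a fold of 9.49 and a score of 1166, the highest of any member, and the nearest shCtrl region was 4637 bp away. A second member of CTNND2, at 11791749 to 11792112, had a fold of 5.83, and the remaining pair had 2.92 and 3.46. The next strongest member, at chromosome 5, 126009542 to 126009951, had a fold of 8.67 and lay 350169 bp from any protein-coding gene end. The third, at chromosome 12, 16449731 to 16450694, inside MGST1, a glutathione transferase of membranes, had a fold of 7.27.

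Among members with a gene end within 50 kb, TSPAN12, a tetraspanin of Norrin signalling in retinal vessels, came first, with a fold of 6.62 inside the gene. High folds were also found at CDH7, a cadherin, with 6.49, and SLC24A4, a sodium, calcium and potassium exchanger, with 6.37. PAPSS2, an enzyme that makes the sulfate donor of the cell, had a member with a fold of 6.22, and ESRRG, an orphan receptor related to the oestrogen receptor, one with 6.18. LRRTM4, a synaptic adhesion protein, had 6.02, ACER3, a ceramidase, had 5.96, and MTMR3, a lipid phosphatase, had 5.86. The LRRTM4 member touched the annotated gene end itself and lay 231245 bp from the nearest shCtrl region. The ESRRG member lay 2198 bp from a normoxia region and 42754 bp from any hypoxia shCtrl region.

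The gap from a member to the nearest region of the other lists varied widely. The median gap to the nearest shCtrl region was 7523 bp (quartiles 2591 and 20459 bp), with 175 members (8.73%, 7.57 to 10.0) within 1 kb and 170 (8.48%) farther than 50 kb. For regions called only with shCtrl in hypoxia, the median gap to the nearest region of the other 2 lists was 8249 bp, with 4.80% (4.20 to 5.49) within 1 kb. Within 5 kb lay 39.7% of members (37.5 to 41.8) and 34.3% (32.9 to 35.7) of those regions. The lists searched differ in length. For members they hold 77451 and 90962 regions, and for regions called only with shCtrl in hypoxia 62779 and 90962. The part of list length in these gaps was not tested. The 175 close members had a median fold of 3.05 and a score of 144, and the 170 isolated ones a fold of 3.57 and a score of 162. Some close members had a low fold with a fair score. SIPA1L1, an activator of Rap GTPase hydrolysis, had one with a fold of 1.86 and a score of 217 at 896 bp from a shCtrl region, where other shZHX2 regions of that decile had a median fold of 3.87. RARA, the retinoic acid receptor alpha gene, had one with a fold of 2.76 and a score of 214 at 545 bp.

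At the edge of the rule the values ran on without a break. The closest members lay 6, 33 and 40 bp from a shCtrl region, with folds of 2.86, 2.04 and 3.21. The nearest regions on the other side shared 3, 15 and 17 bp with one and had folds of 2.78, 3.06 and 2.34. There were 3 members within 50 bp and 14 other regions that shared 50 bp or fewer.

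**Figure D3:**
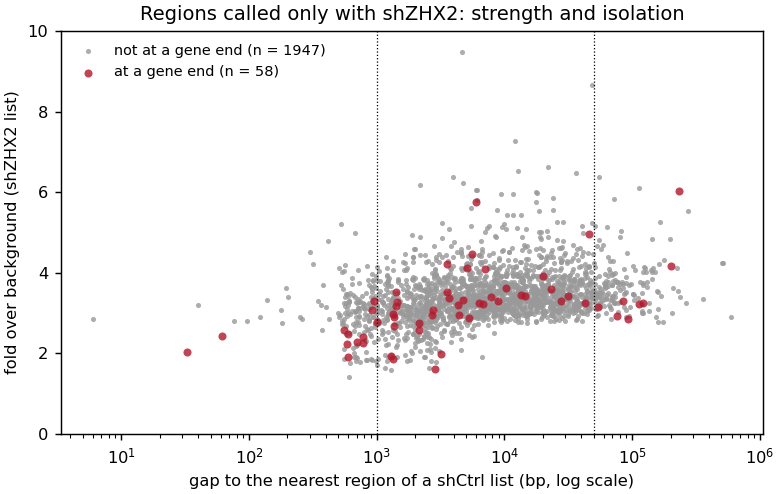
Fold over background in the shZHX2 list (y axis) against the gap to the nearest region of a shCtrl list (x axis, bp, log scale) for the 2005 members; red points lie within 1 kb of a gene end, and dotted lines mark 1 kb and 50 kb. The 36 members with a fold under 2 lay 557 to 6625 bp from a shCtrl region, and the strongest member, in CTNND2, had a fold of 9.49 at 4637 bp.

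Members lay inside protein-coding genes more often than regions called only with shCtrl in hypoxia. Of the members, 1054 (52.6%, 50.4 to 54.7) lay within the span of such a gene. The share was 42.0% (40.6 to 43.5) among the 4249 regions called only with shCtrl in hypoxia, which were 4.34% of merged regions. It was 54.4% (52.4 to 56.4) of the 2389 regions called with shZHX2 and in normoxia, and 59.1% of those in all 3 lists. Over the whole shZHX2 list it was 58.6% (58.2 to 59.0) of other regions. By decile of score it was 51.7% of members (48.2 to 55.1) and 51.0% of other regions in the weakest, 55.1% (51.1 to 59.1) and 51.0% in the next, and 52.8% of members (47.6 to 57.9) and 2963 of 5922 other regions in the third. In the fourth it was 51.9% of members and 52.0% of other regions, and in the fifth 39.3% (28.1 to 51.9) of 61 members and 51.5% of other regions. The 3 lowest deciles of each whole list had 50.9% inside genes with shZHX2, 48.3% with shCtrl in hypoxia and 49.1% in normoxia. The higher share of members than of regions called only with shCtrl in hypoxia held with a −log10 q of 15 or more in all lists, at 55.7% against 42.4%, and with lists of equal length, at 53.5% against 42.1% by score and 56.2% against 42.3% by fold.

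Members lay at gene ends less often than other shZHX2 regions of the same decile of score. In the weakest decile, 3.07% of members (2.09 to 4.49) lay at a gene end, against 5.99% of other shZHX2 regions (5.39 to 6.65). In the next decile it was 3.06% against 5.64%, and in the third 2.53% against 6.37%. Members were also slightly narrower there, with median widths of 249 bp against 279 bp in the weakest decile. Regions called only with shCtrl in hypoxia lay at a gene end in 3.44% (2.93 to 4.03), and those in all 3 lists in 23.4%. Among members, the share at a gene end was 6.29% (3.55 to 10.9) within 1 kb of a shCtrl region and 3.39% (2.23 to 5.12) between 1 and 5 kb. It was 1.73% (1.10 to 2.72) between 5 and 50 kb and 4.71% (2.40 to 9.01) beyond 50 kb, so it did not fall steadily with distance.

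**Figure D4:**
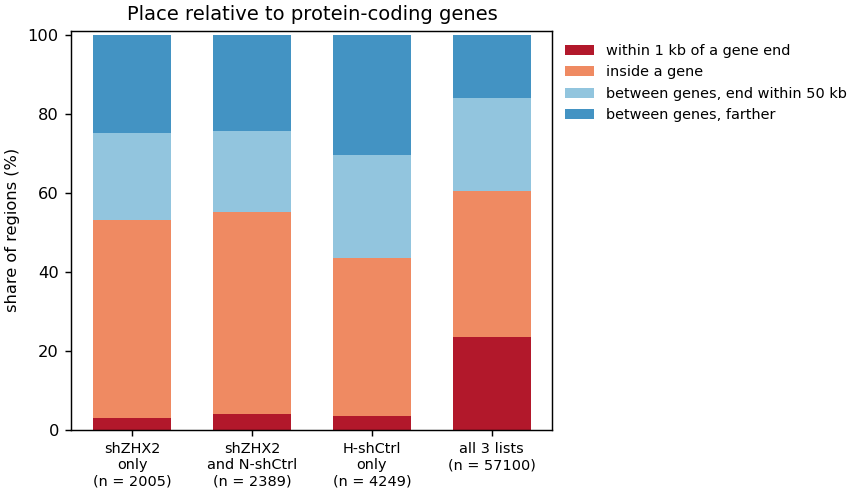
Place of regions relative to protein-coding genes, as stacked shares of regions in percent (y axis) for regions called only with shZHX2, with shZHX2 and in normoxia, only with shCtrl in hypoxia, and in all 3 lists. Gene ends take 2.89% of regions called only with shZHX2, and a larger part of them lay inside genes than of regions called only with shCtrl in hypoxia.

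The genes that held members were long. The median length of the gene around a member was 166 kb, against 81.1 kb around other shZHX2 regions and 153 kb around regions called only with shCtrl in hypoxia. PDE4D, a phosphodiesterase that breaks down cyclic AMP, held 6 members, the most of any gene, among 38 shZHX2 regions along 1553 kb. Their folds ran from 2.93 to 3.93. Genes with 4 members were CTNND2, CDH18, ASTN2, a protein of neuronal migration, MECOM, a zinc finger factor and oncogene, NRG3, a ligand of the receptor ERBB4, and SIPA1L1. SIPA1L1 had 11 shZHX2 regions, against 7 with shCtrl in hypoxia and 9 in normoxia. MECOM had 27, against 29 and 36. Of the 2005 members, 59 (2.94%) had another within 10 kb, in 29 groups. Regions called only with shCtrl in hypoxia, a larger set, had 281 of 4249 (6.61%) in such groups. Among members, the 1 group of 3 lay in OSTN, which encodes the secreted peptide musclin, at chromosome 3, 191236776 to 191244488. The tightest pairs spanned 1172 bp on chromosome 7 and 1274 bp on chromosome 9 and were assigned to no gene. A pair in IGF1R, the receptor of insulin-like growth factor, had folds of 5.08 and 2.98.

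Assigned to the gene with the closest end within 50 kb, members fell at 1035 of 20033 protein-coding genes (5.17%), or 6.16% of the 16789 with any shZHX2 region, with 972 genes at 1, 56 at 2, 6 at 3 and 1 at 4. CPT1A, the enzyme that passes fatty acids into mitochondria at the limiting step, had the 4. It had 12 shZHX2 regions in all, against 9 with shCtrl in hypoxia and 12 in normoxia, and its members had folds of 1.90, 3.18, 3.09 and 3.08. EGFR, the epidermal growth factor receptor gene, had 3 of 9 shZHX2 regions, with 8 in the hypoxia shCtrl list and 13 in normoxia. The other genes with 3 were ASTN2, OSTN, STRBP, an RNA-binding protein of spermatids, TOP2B, the DNA topoisomerase II of resting cells, and the uncharacterised LOC124903248. Of the 3 TOP2B members, 2 lay inside the neighbouring gene RARB, a retinoic acid receptor. The folds at these genes ran from 2.41 to 4.51. Under assignment within 20 kb, 656 genes had a member.

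The share of members differed between chromosomes. They made up 4.92% (3.84 to 6.28) of the shZHX2 regions of chromosome 13, 4.56% of chromosome 4, 4.38% of chromosome 6 and 4.32% of chromosome 5. On chromosome 22 they made up 1.23% (0.760 to 1.99), on 19 1.56%, on 17 1.73%, on 16 1.77% and on 15 1.84%. Chromosomes were then split by the median GC content of all their promoter windows, a choice made after these shares were seen. The 11 of lower GC had 1131 members in 28581 shZHX2 regions (3.96%, 3.74 to 4.19), and the 11 of higher GC had 767 in 31154 (2.46%, 2.30 to 2.64). Regions called only with shCtrl in hypoxia made up 5.59% (5.35 to 5.83) and 5.23% (5.02 to 5.46) of their list on the same sets of chromosomes. Those called only in normoxia made up 18.9% and 16.9%. Chromosome 8, which had no promoter windows, and chromosome Y were not used in this split. The copy number of chromosomes in T47D cells was not used here, and its part in these shares was not tested.

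**Figure D5:**
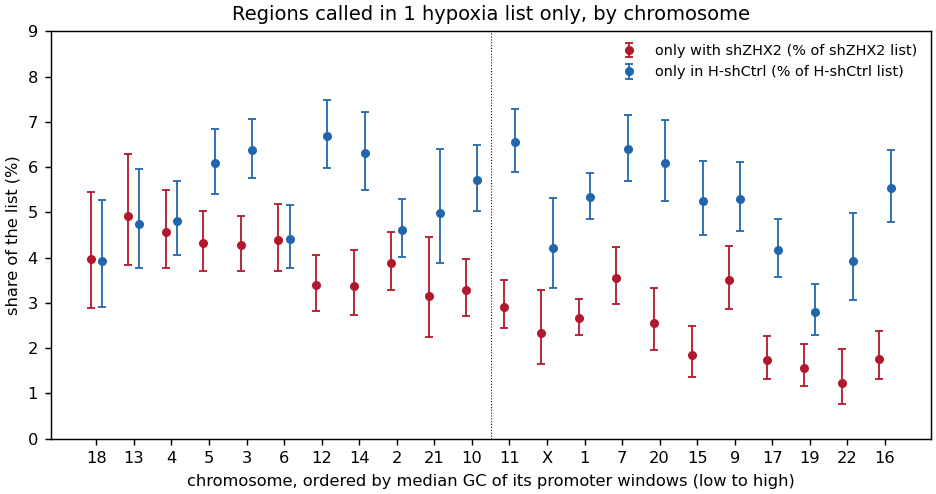
Share of the shZHX2 list called only with shZHX2 (red) and of the hypoxia shCtrl list called only there (blue), in percent (y axis), for 22 chromosomes ordered by the median GC content of their promoter windows (x axis). Points are shares, whiskers are Wilson 95% intervals and the dotted line splits the sets of 11; the red share was 3.96% over the lower set and 2.46% over the higher.

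Luminal genes, the identity genes of this cell line, had members at 8 of 30 (26.7%). This is read against 5.17% of all protein-coding genes and 6.16% of those with any shZHX2 region. The luminal list was chosen with earlier results of these data known. Per region the difference was smaller. Of the 173 shZHX2 regions assigned to luminal genes, 9 were members (5.20%, 2.76 to 9.59), against 2.42% of the 45614 shZHX2 regions assigned to any protein-coding gene. TRPS1, a GATA-type repressor of luminal cells, had 2, with folds of 2.70 and 2.01, out of 15 regions. ESR1, the oestrogen receptor gene, had 1 with a fold of 3.05, 731 bp from a normoxia region, and GATA3, a luminal master factor, had 1 with 3.35, 712 bp from a hypoxia shCtrl region. GRHL2, an epithelial factor, had 1 with 3.23, PRLR, the prolactin receptor gene, 1 with 3.23, IGF1R 1 with 3.53, ZNF703, a luminal oncogene, 1 with 2.99, and RARA 1 with 2.76. Other members inside luminal genes lay too far from any gene end to be assigned. GREB1, an oestrogen-induced gene, held 1 with a fold of 2.24, TRPS1 held 1 with 2.91, and IGF1R held 2 with 5.08 and 2.98. None of these lay at a gene end, and none of the 30 genes had a member in the stronger 50% of the list.

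Signalling and hypoxia lists are read against 5.17% of all genes and 2.42% of all assigned regions. NF-kB genes had 2 of 22, TNFAIP3, a feedback inhibitor, with a fold of 3.05 and IRF1 with 2.89, or 2 of 59 regions (3.39%). HIF targets had 3 of 40, the histone demethylase genes KDM3A, with 3.82, and KDM4C, with 3.45, and BNIP3, a mitophagy receptor, with 2.51, or 3 of 138 regions (2.17%, 0.742 to 6.20). Among 11 oxygen sensing and ZHX genes the 1 with a member was HIF1A, or 1 of 42 regions (2.38%). The HIF1A member, at chromosome 14, 61711355 to 61712138, had a fold of 3.00. It lay 1517 bp from a normoxia region and 14997 bp from a hypoxia shCtrl region. ZHX2 and VEGFA, the angiogenic growth factor gene, had none, with 8 assigned shZHX2 regions each. CA9, a hypoxia-induced carbonic anhydrase, had no region assigned to it in any list, and regions closer to the end of another gene are not counted there. TGF-beta and BMP genes had 3 of 19, at SKI, BMP4 and TGFBR3, or 3 of 78 regions (3.85%, 1.32 to 10.7). Interferon response genes had 1 of 14, at IFIT1, in a region that lies inside LIPA, or 1 of 29 regions (3.45%).

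Lists on growth control and cell identity were read against the same 2.42% of regions over all genes. Oncogenes and tumour suppressors of breast cancer had 5 of 22 (5 of 88 regions, 5.68%, 2.45 to 12.6), RB1 with a fold of 3.92, MAP3K1 with 3.70, MECOM with 3.39 and CDKN1B with 2.10 among them. MECOM had stood out in earlier results of these data, so its place in the list is not independent of them. Basal and stem cell genes had 2 of 15, EGFR and KLF5, or 4 of 53 regions (7.55%, 2.97 to 17.9). Of these 4 regions 3 were assigned to EGFR, of which 1 lay inside that gene, and the interval makes no allowance for regions that share a gene. TP63 held a further member with a fold of 4.89. Chromatin architecture genes had 2 of 19, or 2 of 61 regions (3.28%, 0.904 to 11.2). These were WAPL, which releases cohesin, and STAG2, a cohesin subunit, and STAG1, its paralogue, held 2 more. Neuronal adhesion and synapse genes had 2 of 20, ROBO2 and NFASC, or 3.51% of 57 regions. Counted by gene span, 6 of the 20 held a member, NFASC among them. Housekeeping genes had 1 of 22, TBP, or 1 of 48 regions (2.08%). Mesenchymal and invasion genes had 0 of 80 regions, which allows a share of up to 3.75%, though COL5A1 held 1 member too far from its ends to be assigned. AP-1 and stress factors had 0 of 65, cell cycle genes 0 of 53 and respiratory chain genes 0 of 43, which allow up to 4.62%, 5.66% and 6.98%. Markers of stroma and endothelium had 0 of 31, those of liver and neuron 0 of 21, with 2 members inside RBFOX3, and blood markers 1 of 21.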

How the data were processed

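Values came from 3 deposited lists of called regions, 1 per group of 3 samples, in a broad-peak layout of 9 columns without a header. Per the submitters' processing notes, FastQC, Bowtie2, SAMtools and MACS2 were used with hg38. No version or setting is stated, nor how samples were combined. The authors deposited a score, a −log10 q and a fold over local background for each region, which were used only within a list. In 62776 of 62779 shZHX2 regions the score was the whole-number part of the −log10 q multiplied by 10.

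Lists were merged where regions shared 1 bp. Gene spans came from a RefSeq table of GRCh38.p14, which shares coordinates with hg38, with 20033 protein-coding genes. A region lay at a gene end within 1 kb of either end and was assigned to the gene with the closest end within 50 kb. All 382 entries of 19 gene lists matched, 2 by an older symbol. Promoter windows came from RefSeq and include 15842 protein-coding genes. A share of 0 carries the limit that 3 counts allow. The code was tested on simulated lists. The members and the gene lists were chosen with earlier results of these data known. Named genes were those with most members, those with the highest folds, gene ends called only with shZHX2, list genes with a member, and touched promoters by fold. A few items that these rules select are not reported here. The splits by promoter GC, genes held and the weakest regions of each list were added after the data were seen. Python 3.11.15, pandas 2.3.3 and scipy 1.17.1 were used.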

Additional observations from a re-analysis of the deposited data

How the results depend on the processing

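No paired analysis was possible because each group of 3 samples gave 1 list, and leaving out a sample was likewise not possible. The number of regions called only with shZHX2 was 2005 and rested on the lengths of the lists: it was 6553 with the 3 lists cut to equal length by score and 8436 by fold, and 27 in the stronger 50% of the shZHX2 list. In the same order, genes with such a region numbered 3203, 4166 and 13, gene ends called only with shZHX2 numbered 168, 564 and 0, shares at a gene end were 4.29%, 10.3% and 7.41%, median widths were 294, 322 and 381 bp, and shares within 1 kb of another list's region were 4.24%, 6.27% and 3.70%. The share inside a gene was 56.2% with equal lengths by fold and 55.6% in the stronger 50%. The median GC content of promoter windows was 49.8% with equal lengths by score and 65.3% by fold, and no window was touched in the stronger 50%. With a −log10 q of 15 or more in all lists, the median width was 301 bp, 5.13% lay within 1 kb of another list's region and 55.7% inside a gene. With sharing counted only from 50% of the width, the median width was 278 bp and 21.5% lay within 1 kb. Gene end windows of 500 and 2000 bp gave shares of 1.90% and 5.79%, assignment within 20 kb gave 656 genes, and neighbours within 50 kb put 234 regions in groups. Luminal genes with such a region numbered 0 in the stronger 50%, 16 and 23 with equal lengths by score and fold, and 4 with assignment within 20 kb. The cause was not tested. Of 81 values under alternatives, 41 stayed within the counting error of the reported value or, for counts, within 1.5 times of it. Depth per list is unknown, so a region absent from a list was not detectable past that list's threshold and is not shown to be closed.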
